A study of Mus musculus with 12 samples.

Results

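The genes described here are long intergenic RNAs that were well measured in mouse oocytes. GENCODE mouse release M21 (GRCm38) types them as lincRNA, and each had at least 50 raw counts in each of the 4 libraries from whole oocytes amplified for 10 or 14 cycles. This rule left 271 of the 5849 lincRNA genes in the deposited counts, of which 2685 had a count in any library, and the files list 55573 genes in all. The same minimum left 9251 protein-coding genes and 10050 genes of every type. The genes were thus chosen by their raw counts at 10 and 14 cycles, so levels in those libraries are descriptions, and the tests given below used the 8 libraries at 18 cycles. The choice still bears on these tests. Long intergenic RNAs low at 10 or 14 cycles are not among the 271, whatever their level at 18 cycles.

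Long intergenic RNAs are transcribed from between protein-coding genes, are mostly spliced and polyadenylated, and carry no annotated coding sequence. They are usually shorter, have fewer exons and are less abundant than messenger RNAs, and most of them have no known function. A fully grown oocyte at the germinal vesicle (GV) stage is nearly silent in transcription, so its RNA is largely what it stored while growing.

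Every library came from GV oocytes of a healthy, 12 weeks old B6D2F1 female, collected in M2 medium with milrinone, an inhibitor of phosphodiesterase that holds oocytes in arrest. Whole oocytes were amplified for 10, 14 or 18 cycles, with 1 library from each of 6 oocytes. Lysates of 2 further oocytes were diluted to 1/2, 1/4 and 1/8 of an oocyte and amplified for 18 cycles, so each of the 6 groups has 2 libraries. ERCC (External RNA Controls Consortium) spike-in RNA was added to all of them, poly(A) RNA was taken up on oligo(dT) beads, and the libraries were made with the Nextera kit. According to the study, the fractions served to show normalization by the spike-in. All oocytes came from the same female, and the replicates are different oocytes or parts of the lysates of few oocytes, so p-values measure the spread between these samples.

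Counts on genes were 11597144 and 9189672 at 10 cycles, 12349577 and 13806199 at 14 cycles, and 3017069 and 1706478 in whole oocytes at 18 cycles. The fractions gave 4024670 and 3598549 with 1/2 input, 4027907 and 5049518 with 1/4 and 11404262 and 1702062 with 1/8. Levels are given as CPM (counts on the gene scaled to the library's total on all genes), and the most abundant genes are those with the highest CPM, which depends on exon length too. All 271 long intergenic RNAs had a count in each library at 10 and 14 cycles by the rule. In whole oocytes at 18 cycles 265 and 261 had a count, but only 62 and 36 had at least 50. With 1/2 input 91 and 83 reached 50 counts, with 1/4 93 and 124 did, and with 1/8 247 and 95. Most of these genes thus had fewer than 50 counts in each of the whole oocytes at 18 cycles.

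The labelled cell type was checked against markers. All 14 oocyte markers were found in every library, and their summed level was 33569 and 29188 CPM at 10 cycles and 32552 and 33766 at 14 cycles. At 18 cycles it was 9225 and 7637 CPM in whole oocytes, 11146 and 10896 with 1/2 input, 16382 and 17946 with 1/4 and 26049 and 24696 with 1/8, lowest in the whole oocytes. Gdf9, an oocyte growth factor, had the highest CPM over all libraries together, though Padi6 or Ooep exceeded it in some of them. The 12 markers of granulosa and cumulus cells summed to 139 and 85.6 CPM at 10 cycles, 106 and 147 at 14 cycles and 62.3 and 26.4 in whole oocytes at 18 cycles. In the fractions they summed to 34.0 and 31.7 CPM in 1/2, 57.8 and 59.8 in 1/4, and 78.3 and 71.1 in 1/8. Nr5a2 had the highest CPM of them over all libraries together, though Cyp19a1 exceeded it in both libraries of 1/8. Fshr, which defines granulosa cells, had 0 counts in 9 of the 12 libraries. Replicates differed widely in Inha, with 34.1 and 0.326 CPM at 10 cycles and 3.64 and 31.9 at 14 cycles. In whole oocytes at 18 cycles Inha had 17.2 and 0.586 CPM. Amh, Amhr2, Foxl2, Inhba, Nr5a2, Hsd17b1 and the theca marker Star differed in the same directions, while Kitl, Cyp19a1 and Has2 were higher in replicate 2 at 10 cycles. The 5 blood markers summed to at most 0.172 CPM and the 5 theca and stroma markers to at most 31.6 CPM, both in replicate 1 at 10 cycles.

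The well-measured long intergenic RNAs had a median exonic length of 1464 bases and a median of 3 exons, while all lincRNA genes had 1038 bases and 3 exons. Protein-coding genes with the same count minimum had 4730 bases and 9 exons. The shortest was AC132133.2 with 392 bases (ENSMUSG00000117426, chromosome 17 from 79733874 to 79745077), and the longest was AC160336.1, a stretch of 93147 bases annotated as 1 exon (ENSMUSG00000115801, chromosome 14 from 44544055 to 44637201). Pvt1 and D030068K23Rik had the most exons, 10 each, and 11 of the 271 genes had only 1 exon. Chromosomes 6, 12 and 13 each held 21 of them. RefSeq listed 149, of which it typed 138 as lncRNA, 7 as protein coding, 3 as transcribed pseudogenes and 1 as a pseudogene. For those 7, among them Gm1070, the label is therefore disputed between annotations.

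Intergenic is a label of the annotation, and it did not hold for all of these genes. Of the 271, 196 shared no exonic base with another gene, and 75 (27.7%) did, compared with 14.5% of all lincRNA genes and 39.2% of the protein-coding genes with the same minimum. In 23 more than 50% of the exonic bases were shared, and in 9 all of them were. The counts look as if a read over 2 genes was counted for both, whatever its strand, although the study's methods name the default settings of the counting program, which leave such reads out. The submitters' notes give another version of the program than the methods, so it is not certain that those settings made these files. Of the 486 genes whose exons lay fully within exons of a gene on the opposite strand, 239 had counts, and their counts exceeded those of the covering gene in 0 of 1612 values. For 632 genes covered on the same strand, it was 0 of 1276. Counts of the 75 overlapping members thus can hold reads of their neighbours, and their own level is uncertain. Of the abundant ones, C86187 shared 14.5% of its exons with the pseudogene Gm31941, and Gm26582 shared 70.7% with G3bp2 and Cdkl2, all on the opposite strand.

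The count minimum cut through a continuum. Just inside it were Gm26578 with 50, 50, 79 and 149 counts (10 cycles, then 14 cycles), AU019990 with 51, 53, 78 and 97, and Gm49448 with 92, 51, 104 and 58. Just outside were Gm20685 with 53, 49, 58 and 53 counts, Gm26775 with 121, 49, 163 and 124, and Gm17322 with 48, 129, 85 and 238. The lowest counts of these 6 genes ranged from 48 to 51.

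At 10 and 14 cycles most of the long intergenic RNAs were rare and a few were abundant. The median of their mean levels was 16.9 CPM, and the lowest was 5.36 CPM. A level of at least 10 CPM was reached by 199 genes, of at least 100 CPM by 24, and of at least 1000 CPM by 3. The 3 most abundant genes held 41.7% of the summed level of all 271, and the 12 most abundant held 62.1%. Between the 4 oocytes the median coefficient of variation was 17.9%, and 160 genes were below 20%. The rule left out genes that were low in any of these 4 libraries, which limits how far levels could vary. Gm26776 varied least at 2.21%, though 98.6% of its exons lie in Ccdc3 on the opposite strand. Above 50% were Gm26917 (63.1%), Gm19757 (56.4%), AC132133.2 (53.3%) and Gm49371 (50.2%). The genes at both ends of this range were named after their values were seen.

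**Figure D1:**
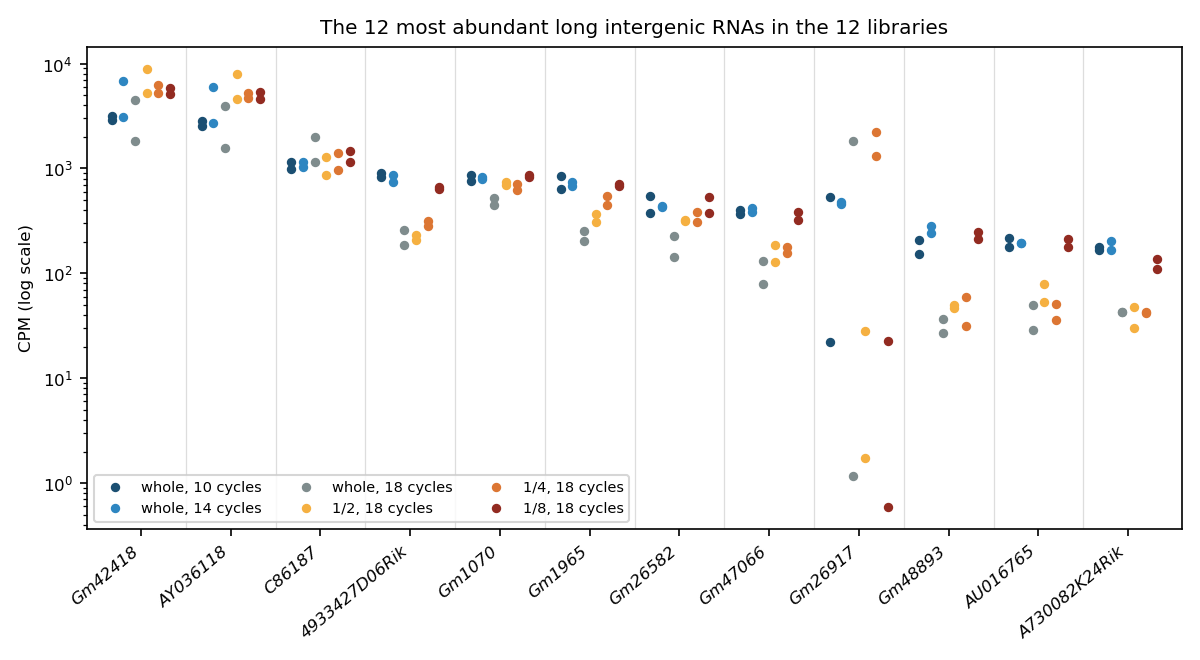
CPM (log scale) of the 12 most abundant long intergenic RNAs, with a point for each of the 12 libraries coloured by group. For most of them the points of 1/8 lie near those at 10 and 14 cycles and above the grey points of whole oocytes at 18 cycles, while Gm26917 spreads from 0.588 to 2230 CPM.

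The 2 most abundant genes, and the most variable of the 271, lie side by side at a ribosomal RNA locus. Gm26917 (ENSMUSG00000097971, chromosome 17 from 39843013 to 39846341, plus strand) ends just before CT010467.1, which is annotated as rRNA from 39846353 to 39848827 on the minus strand. Gm42418 (ENSMUSG00000098178, from 39846958 to 39848788, plus strand) has 99.5% of its only exon within CT010467.1, and AY036118 (ENSMUSG00000105361, from 39847113 to 39848035, minus strand) lies wholly within both. RefSeq places a pseudogene of 18S ribosomal RNA, Rn18s-rs5, from 39846354 to 39848202, and AY036118 at another position, from 39848112 to 39898385. So the label of intergenic RNA is at odds with the position of Gm42418 and AY036118, and reads of CT010467.1 can be counted for both as well.

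Gm42418 had 3163 and 2871 CPM at 10 cycles and 6760.4 and 3075 at 14 cycles, a mean of 3967 ± 1866 (SD, n = 4). It had 1845 and 4524 CPM in the whole oocytes at 18 cycles, 5232 and 8879 with 1/2 input, 6175 and 5240.3 with 1/4 and 5124 and 5859.9 with 1/8. AY036118 had a mean of 3526 ± 1673 CPM at 10 and 14 cycles (SD, n = 4) and ranged from 1559 to 7881 CPM over the 12 libraries. Both genes were lowest in replicate 1 of the whole oocytes at 18 cycles and highest in replicate 2 of 1/2, as was CT010467.1 with 3682 and 18339.9 CPM.

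Gm26917 was at 529 and 22.3 CPM at 10 cycles and 461 and 482 at 14 cycles, and at 1837 and 1.17 CPM in the whole oocytes at 18 cycles, 1.74 and 28.3 with 1/2 input, 2230.2 and 1314 with 1/4 and 22.5 and 0.588 with 1/8. Between 461 and 2230 CPM were found in 6 libraries and at most 28.3 CPM in the other 6, and the replicates fell on different sides at 10 cycles and in whole oocytes at 18 cycles. The 3 genes together held 0.597 ± 0.0749% of gene counts at 10 cycles, 0.976 ± 0.494% at 14 cycles and 0.685 ± 0.227% in whole oocytes at 18 cycles, and more in the fractions, with 1.33 ± 0.495% in 1/2, 1.24 ± 0.174% in 1/4 and 1.05 ± 0.103% in 1/8 (SD, n = 2).

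**Figure D2:**
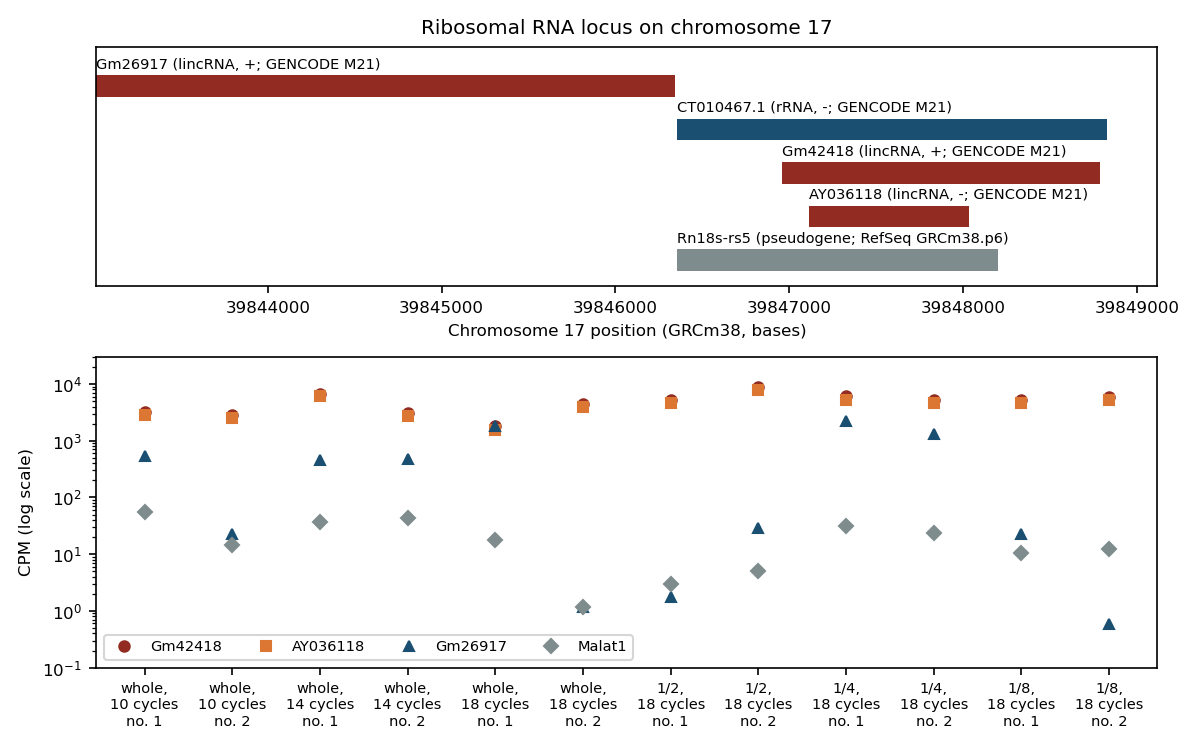
Top, positions on chromosome 17 (GRCm38, bases) of 3 long intergenic RNAs, the rRNA gene CT010467.1 and the RefSeq pseudogene Rn18s-rs5. Bottom, CPM (log scale) of the 3 genes and of Malat1 in each of the 12 libraries: Gm42418 and AY036118 move together, and Gm26917 is at or above 461 CPM in 6 libraries and at or below 28.3 CPM in the other 6.

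Outside this locus, C86187 was the most abundant (ENSMUSG00000110001, chromosome 7 from 46967711 to 46975911, minus strand). It had 1160.1 and 995 CPM at 10 cycles and 1148 and 1035 at 14 cycles, a mean of 1085 ± 82.0 (SD, n = 4), and 1142 and 1972 CPM in the whole oocytes at 18 cycles, 858 and 1287 with 1/2 input, 1388 and 971 with 1/4 and 1155 and 1472 with 1/8. Its 6 groups all lay within 858 and 1972 CPM, with the highest value in replicate 2 of the whole oocytes at 18 cycles.

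A pair of abundant genes stands side by side on chromosome 6. 4933427D06Rik (ENSMUSG00000055403, chromosome 6 from 88950683 to 89110031, plus strand) overlapped no other gene and had 909 and 831 CPM at 10 cycles and 874 and 739 at 14 cycles, followed by 186 and 257 CPM in the whole oocytes at 18 cycles, 210.0 and 233 with 1/2 input, 316 and 286 with 1/4 and 639 and 661 with 1/8. Gm1965 (ENSMUSG00000090254, chromosome 6 from 89140994 to 89147388, plus strand) also overlapped none, with 843 and 642 CPM at 10 cycles and 737 and 676 at 14 cycles and with 204 and 253 CPM in the whole oocytes at 18 cycles, 365 and 309.8 with 1/2 input, 449 and 549 with 1/4 and 674 and 709 with 1/8. In both genes the whole oocytes at 18 cycles lay below all 4 libraries at 10 and 14 cycles, and 1/8 lay above every other library at 18 cycles.

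Gm1070 (ENSMUSG00000073018, chromosome 6 from 71293765 to 71302880, plus strand), which RefSeq types as protein coding, had 872 and 756 CPM at 10 cycles and 824 and 791 at 14 cycles and 449 and 524 CPM in the whole oocytes at 18 cycles, 692 and 746 with 1/2 input, 625 and 711 with 1/4 and 830.0 and 862 with 1/8. Its whole oocytes at 18 cycles were lowest. The other 5 of the 12 most abundant, Gm26582, Gm47066, Gm48893, AU016765 and A730082K24Rik, had means from 179 to 448 CPM at 10 and 14 cycles. Per kilobase of exons the order was AY036118 (3820.0 CPM), Gm42418 (2167), C86187 (449), Gm47066 (322), Gm48893 (298), Gm1965 (296), 4933427D06Rik (288) and Gm1070 (282). Neighbours from Gm47066 to Gm1070 in this order did not differ beyond the spread between oocytes.

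Of 60 entries in a list of well-known long noncoding RNAs, in which Rmrp stands for 2 gene IDs, 52 were found in the files, 26 of them typed lincRNA, and of these 26 only Malat1, Pvt1, Snhg6 and Snhg18 reached the count minimum. Hotair had 0 counts in all 12 libraries, and H19 and Xist, which act in imprinting and X inactivation, had at most 0.109 and 1.81 CPM. The most abundant of the 52 was D6Ertd527e, typed protein coding, with 824 and 507 CPM at 10 cycles. Malat1 (ENSMUSG00000092341, chromosome 19 from 5795690 to 5802672), a nuclear speckle RNA, had 55.7 and 14.6 CPM at 10 cycles and 37.0 and 43.0 at 14 cycles, and 17.9 and 1.17 CPM in the whole oocytes at 18 cycles, 2.98 and 5.00 with 1/2 input, 31.3 and 23.8 with 1/4 and 10.4 and 12.3 with 1/8. Its replicates stood far apart at 10 cycles and in the whole oocytes at 18 cycles, and the groups overlapped. The granulosa markers Inha, Amh, Amhr2, Foxl2, Inhba, Nr5a2 and Hsd17b1 and the theca marker Star were also higher in replicate 1 of both these groups. Cyp19a1 and Has2 were higher in replicate 2 of both, and Kitl was higher in replicate 2 only at 10 cycles. A link of Malat1 with such markers was not tested. Pvt1 (ENSMUSG00000097039, chromosome 15 from 62037986 to 62378096), which lies next to Myc, had 52.9 and 59.6 CPM at 10 cycles and 44.5 and 48.7 at 14 cycles, and 10.3 and 12.3 CPM in the whole oocytes at 18 cycles, 33.8 and 19.2 with 1/2 input, 27.6 and 43.2 with 1/4 and 55.1 and 50.5 with 1/8. Its whole oocytes at 18 cycles lay below the other 10 libraries.

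The other 2 are host genes of small nucleolar RNAs. Snhg18 had 18.2 and 27.0 CPM at 10 cycles and 21.2 and 25.6 at 14 cycles, and 8.29 and 12.3 CPM in the whole oocytes at 18 cycles, 21.4 and 14.7 with 1/2 input, 18.6 and 22.6 with 1/4 and 24.6 and 30.6 with 1/8. Snhg6, whose exons overlap Mcmdc2 on the opposite strand by 11.1%, had 11.04 and 15.0 CPM at 10 cycles and 10.9 and 14.4 at 14 cycles, and 25.2 and 15.8 CPM in the whole oocytes at 18 cycles, 32.8 and 27.0 with 1/2 input, 17.6 and 19.4 with 1/4 and 22.6 and 46.4 with 1/8. Snhg18 was lowest in the whole oocytes at 18 cycles, and Snhg6 was lowest at 10 and 14 cycles.

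Across the 12 libraries the long intergenic RNAs took a small share of gene counts. Mean and SD over 2 libraries were 1.85 ± 0.0388% at 10 cycles, 2.26 ± 0.527% at 14 and 1.31 ± 0.329% at 18. In the fractions it was 2.01 ± 0.495% in 1/2, 1.95 ± 0.145% in 1/4 and 2.26 ± 0.217% in 1/8 (SD, n = 2). Without the 3 genes at the rRNA locus, a choice made after seeing the data, the shares at 18 cycles were 0.630 ± 0.102% in whole oocytes, 0.680% in both libraries of 1/2, 0.710 ± 0.0294% in 1/4 and 1.21 ± 0.114% in 1/8 (SD, n = 2). At 10 and 14 cycles they were then 1.26 ± 0.0360% and 1.28 ± 0.0333%. The share without the locus in 1/8 thus lay near that at 10 and 14 cycles, and the other groups at 18 cycles lay lower. Over the members without exon overlap the shares at 18 cycles were 0.364 ± 0.0974% in whole oocytes, 0.359 ± 0.0148% in 1/2, 0.564 ± 0.0240% in 1/4 and 0.803 ± 0.0723% in 1/8 (SD, n = 2). This set still holds Gm26917 of the rRNA locus, which weighs unequally on the groups. It had 1837 and 1.17 CPM in the whole oocytes at 18 cycles, 1.74 and 28.3 in 1/2, 2230 and 1314 in 1/4 and 22.5 and 0.588 in 1/8. Reads over 2 genes appear to count for both in these shares.

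Set against its mean at 10 and 14 cycles, the level of the median long intergenic RNA was 0.256 for the whole oocytes at 18 cycles, 0.340 for 1/2, 0.382 for 1/4 and 0.883 for 1/8. For the protein-coding genes with the same minimum these ratios were 0.800, 0.825, 0.900 and 0.964. Both whole oocytes at 18 cycles lay below all 4 libraries at 10 and 14 cycles for 237 of the 271 genes, where 47.1% of all genes with the count minimum did so, and above them for 14, where 26.4% did. Nothing is read from these counts, since the same libraries chose the genes. The 14 included Gm43055, Gm26841, Gm16755, Gm16933, Gm26765, Gm26635, 1700028I16Rik, Gm49755 and Snhg6.

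**Figure D3:**
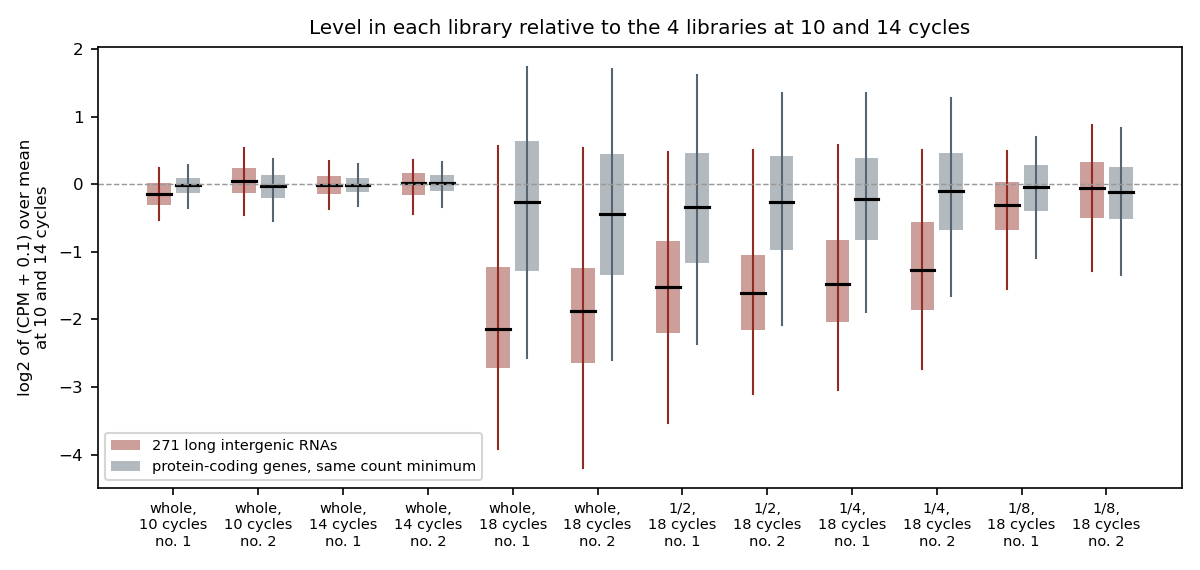
Level of the 271 long intergenic RNAs (red) and of protein-coding genes with the same count minimum (grey) in each library, as log2 of CPM plus 0.1 over the mean at 10 and 14 cycles, with medians as black lines, quartiles as boxes and the 5th to 95th percentiles as thin lines. The red medians lie below the grey ones in the whole oocytes, 1/2 and 1/4 at 18 cycles. In replicates 1 and 2 of 1/8 the red medians are -0.302 and -0.0583, and the grey ones -0.0348 and -0.115.

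The fractions came from lysates of 2 oocytes, fitted as independent libraries, and the whole oocytes at 18 cycles were others. Input and oocyte therefore cannot be told apart. The comparisons between them set each gene's relative level in a fraction against that in whole oocytes. They used edgeR's quasi-likelihood test on the 14788 genes that reached 5 counts in 2 or more of the 8 libraries, size factors from the median ratio over all genes, and a Benjamini-Hochberg adjusted p under 0.01. All 271 members passed the filter, 269 of them also without the libraries of 1/8 and 2 only through these. Those 2 stay in the counts and medians given for 1/8, where the filter itself bears on their values. The 3 comparisons share the 2 whole oocytes at 18 cycles. Size factors from the ERCC molecules moved the median log2 fold change of all genes to -2.0 in 1/2, -2.69 in 1/4 and -4.92 in 1/8, so the directions given below are relative to the other genes. The ERCC scale rests on 1611 and 1474 ERCC counts in the whole oocytes at 18 cycles. At 10 cycles there were 35852 and 25528 and at 14 cycles 35616 and 39046, more also relative to counts on genes. The cause of this difference was not tested.

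In 1/2, the long intergenic RNAs lay slightly above the other genes and none passed the test. Their median log2 fold change was 0.31, beside -0.01 for all genes, and 185 of 271 were above 0. With edgeR 0 members were lower (all genes 0.0406%) and 0 higher (all genes 0.0811%), while 35 had an unadjusted p under 0.05 (1943 of the 14788 genes tested did) and DESeq2 called 1 lower (0.369%, all genes 0.331%) and 1 higher (0.369%, all genes 0.690%). The lowest adjusted p from edgeR was 0.0126, for Gm49755, whose log2 fold change was -1.94 (SE 0.36), with both libraries of 1/2 below both whole oocytes. Whether a member passed depended on replicate 2 of the whole oocytes. Leaving out replicate 1 or 2 of the whole oocytes moved the median to 0.16 or 0.53, and with ERCC size factors it was -1.61, which is 0.39 above that of all genes.

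In 1/4, a single long intergenic RNA fell. Gm49755 (ENSMUSG00000116546, chromosome 16 from 30849456 to 30851358, plus strand), which overlaps no annotated gene, had 51.7 and 38.0 CPM at 10 cycles and 51.3 and 37.4 at 14 cycles, and 67.3 and 86.1 CPM in the whole oocytes at 18 cycles, 23.6 and 17.5 with 1/2 input, 15.9 and 19.2 with 1/4 and 35.6 and 42.9 with 1/8. Its whole oocytes at 18 cycles were highest of all, and 1/2 and 1/4 lay below every other group. The log2 fold change in 1/4 was -2.27 (SE 0.36, adjusted p = 0.00135 from edgeR, lower in both libraries), from 60.5 ± 4.98 normalized counts with 1/4 input and 294 ± 70.4 in whole oocytes (mean ± SD, n = 2). It no longer passed without replicate 2 of the whole oocytes (log2 fold change -2.02), replicate 1 of 1/4 (-2.19) or replicate 2 of 1/4 (-2.36). In all, edgeR called 1 member lower (all genes 0.426%) and 0 higher (all genes 0.0338%), 34 had an unadjusted p under 0.05 (2331 of all genes tested did), and DESeq2 called 2 lower (0.738%, all genes 1.15%) and 1 higher (0.369%, all genes 0.467%). Without replicate 1 of the whole oocytes 2 members were lower (all genes 0.664%) and 1 higher (all genes 0.0479%). The median log2 fold change was 0.37, beside 0.05 for all genes, with 204 of 271 above 0, and it was 0.58 without replicate 2 and 0.24 without replicate 1 of the whole oocytes. With ERCC size factors edgeR called 150 members lower (55.4%, all genes 69.7%) and 0 higher, 209 had an unadjusted p under 0.05 (12036 of all genes tested did), and the median was -2.36, which is 0.33 above that of all genes.

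In 1/8, most of the 271 long intergenic RNAs lay above the other genes. With edgeR 65 of the 271 were higher (24.0%, all genes 7.06%) and 8 lower (2.95%, all genes 8.69%). The median log2 fold change was 1.56, beside 0.03 for all genes tested, 241 members were above 0, 193 were above 1 and 10 were below -1. Protein-coding genes with the same minimum had 912 of 9250 higher, 1031 lower and a median of 0.03. The count minimum can itself favour rises in 1/8. For the median member 1/8 lay near 10 and 14 cycles (ratio 0.883), and whole oocytes at 18 cycles did not (0.256). Long intergenic RNAs high only in those whole oocytes were thus left out. A minimum of 20 gave 66 of 422 tested higher (15.6%), 9 lower (2.13%) and a median of 1.505. The part of the rule in this excess was not tested. The members that rose had log2 fold changes from 1.10 to 4.22 with a median of 2.18, and 7 of the 12 most abundant were among them. Relative to 10 and 14 cycles, given as a description, these 65 were at 0.963 in 1/8 at the median and at 0.167 in whole oocytes at 18 cycles.

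These counts, like those of all genes, depended on single libraries and on the scale. Without replicate 1 of the whole oocytes 18 members were higher (6.64%, all genes 1.96%). Without replicate 2 of 1/8, the library with the fewest counts, 37 were higher (13.7%, all genes 4.22%) and 4 lower (1.48%, all genes 4.70%). Lower members also numbered 5 without replicate 2 of the whole oocytes (1.85%, all genes 6.40%) and 5 without replicate 1 of 1/8 (1.85%, all genes 6.72%). With ERCC size factors edgeR called 0 members higher and 218 lower (80.4%, all genes 87.5%), 246 had an unadjusted p under 0.05 (13614 of all genes tested did), and the median was -3.37, which is 1.55 above that of all genes.

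**Figure D4:**
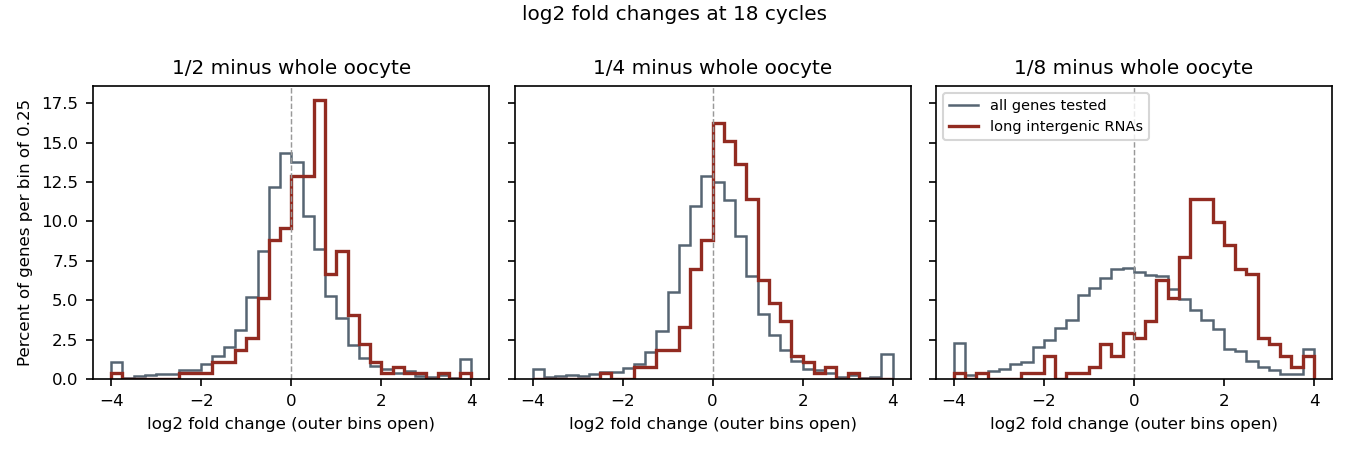
Distribution of log2 fold changes (percent of genes per bin of 0.25, outer bins open) for each fraction minus whole oocytes at 18 cycles, for all 14788 genes tested (grey) and the 271 long intergenic RNAs (red), with size factors from the median ratio. The red curve is centred at 0.31 in 1/2, 0.37 in 1/4 and 1.56 in 1/8, and with ERCC size factors all 3 medians are below 0.

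The largest rise in 1/8 was that of 1700030N03Rik (ENSMUSG00000100969, chromosome 19 from 3053071 to 3197732, minus strand), which shares no exon with another gene although its span crosses 5 of them. It had 26.0 and 29.1 CPM at 10 cycles and 26.6 and 27.8 at 14 cycles, and 1.33 and 1.76 CPM in the whole oocytes at 18 cycles, 6.96 and 6.11 with 1/2 input, 7.94 and 11.3 with 1/4 and 28.9 and 36.4 with 1/8. The whole oocytes at 18 cycles were lowest by far, on 4 and 3 counts, and 1/8 was at or above most of the levels at 10 and 14 cycles. The log2 fold change was 4.22 (SE 0.61, adjusted p = 5.29e-05 from edgeR, higher in both libraries), and -0.71 with ERCC size factors. Next came Gm41414 (ENSMUSG00000116029, chromosome 16 from 5306801 to 5450664), whose log2 fold change was 3.92 (SE 1.03, adjusted p = 0.00694 from edgeR). It had 2 and 1 counts in the whole oocytes at 18 cycles and 113 and 22 in 1/8, and it no longer passed without either library of the whole oocytes, of 1/2 or of 1/8 (log2 fold changes from 3.75 to 4.11).

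Gm49164 (ENSMUSG00000115289, chromosome 14 from 73728568 to 73956061) had 11.6 and 15.7 CPM at 10 cycles and 13.8 and 13.9 at 14 cycles, and 1.66 and 1.17 CPM in the whole oocytes at 18 cycles, 3.23 and 2.78 with 1/2 input, 7.70 and 5.15 with 1/4 and 13.6 and 24.7 with 1/8. Its log2 fold change was 3.47 (SE 0.73, adjusted p = 0.00132 from edgeR), and without replicate 1 or 2 of the whole oocytes or replicate 2 of 1/8 it was 3.68, 3.33 and 3.03 and did not pass. Gm26619 (ENSMUSG00000097346, chromosome 13 from 97751112 to 97760965) had 9.05 and 8.81 CPM at 10 cycles and 8.50 and 9.20 at 14 cycles, and 1.33 and 0.586 CPM in the whole oocytes at 18 cycles, 6.71 and 5.28 with 1/2 input, 6.70 and 8.12 with 1/4 and 11.5 and 15.3 with 1/8. Its log2 fold change was 3.46 (SE 0.75, adjusted p = 0.00178 from edgeR), and it did not pass without replicate 1 (4.15) or 2 (3.14) of the whole oocytes. Its exons overlap Gm10260, a protein-coding gene on the opposite strand, by 50.4%, and Gm10260 had the same CPM in all 12 libraries, so this rise cannot be told from one of Gm10260. In both genes all 6 fractional libraries lay above both whole oocytes at 18 cycles, which had at most 5 counts. Gm49164 shares 32.3% of its exons with the pseudogene Cbx3-ps6 on the opposite strand, which had at most 0.877 CPM in any library.

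Among the 12 most abundant, Gm48893 (ENSMUSG00000111950, chromosome 10 from 26695574 to 26742860, plus strand) rose most. It had 154 and 208 CPM at 10 cycles and 281 and 242 at 14 cycles, and 27.2 and 36.3 CPM in the whole oocytes at 18 cycles, 47.0 and 50.02 with 1/2 input, 31.8 and 59.2 with 1/4 and 213 and 247 with 1/8. The other 3 groups at 18 cycles lay far below 1/8, which was within the range of 10 and 14 cycles. Its log2 fold change was 2.66 (SE 0.35, adjusted p = 2.04e-05 from edgeR), and the pseudogene Gm48892, which shares 33.9% of its exons on the opposite strand, had 2.81. AU016765 (ENSMUSG00000073377, chromosome 17 from 64514081 to 64555660, minus strand) had 177 and 219 CPM at 10 cycles and 195 and 195 at 14 cycles, and 28.5 and 50.4 CPM in the whole oocytes at 18 cycles, 79.8 and 53.6 with 1/2 input, 36.0 and 51.1 with 1/4 and 179.6 and 212 with 1/8. Its rise was 2.11 on the log2 scale (SE 0.36, adjusted p = 0.000218 from edgeR). In this gene, too, only the libraries of 1/8 reached the level of 10 and 14 cycles. Both genes passed with each of the 8 libraries left out in turn, and with ERCC size factors they were at -2.25 and -2.75.

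Gm47066 (log2 fold change 1.53), Gm1965 (1.39), 4933427D06Rik (1.34), A730082K24Rik (1.32) and Gm26582 (1.10) also rose, with adjusted p from 0.000874 to 0.0069 by edgeR. None of these 5 passed without replicate 1 of the whole oocytes, which gave 1.12, 1.16, 1.05, 1.24 and 1.38 in the same order. Gm47066 also did not pass without replicate 1 of 1/8 (1.41), nor did A730082K24Rik (1.16), which was also lost without replicate 2 of the whole oocytes (1.37). Gm26582 was lost without replicate 2 of the whole oocytes (0.84), of 1/4 (1.09) or of 1/8 (0.85) and without replicate 1 of 1/4 (1.10). Of the remaining abundant genes Gm26917 was lower, as described below, and 4 did not pass: C86187 had -0.47, Gm1070 0.59, Gm42418 0.56 and AY036118 0.62, and the last 2 passed as higher without replicate 2 of the whole oocytes (1.42 and 1.52).

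Of the known RNAs among the members, Pvt1 rose in 1/8 by 2.04 on the log2 scale (SE 0.42, adjusted p = 0.00113 from edgeR, higher in both libraries), and at 1.81 it did not pass without replicate 1 of the whole oocytes. Snhg18 had 1.23 (SE 0.45, adjusted p = 0.0467 from edgeR), Snhg6 0.50 and Malat1 -0.02, and none of these 3 passed. Malat1 was at 2.95 without replicate 1 of the whole oocytes, where the other replicate had 2 counts. In the whole list of known long noncoding RNAs 23 were tested, of which 2 (8.70%, all genes 7.06%) were higher in 1/8, Pvt1 and Gas5, a host gene of small nucleolar RNAs, and 0 were lower by edgeR. The list had 6 genes with an unadjusted p under 0.05 and a median of 0.21.

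The members that fell in 1/8 were mostly those that overlap protein-coding genes. Gm43055 (ENSMUSG00000105704, chromosome 5 from 86728906 to 86817106, plus strand) shares 71.8% of its exonic bases with Ythdc1, a nuclear reader of methylated adenosine, on the same strand. It had 22.7 and 37.3 CPM at 10 cycles and 21.9 and 18.6 at 14 cycles, and 203 and 451 CPM in the whole oocytes at 18 cycles, 187 and 189 with 1/2 input, 121 and 102 with 1/4 and 29.6 and 43.5 with 1/8. Ythdc1 itself had 565 and 1306 CPM in whole oocytes at 18 cycles and 93.6 and 101 in 1/8. Both genes were highest in whole oocytes at 18 cycles and, among the groups at 18 cycles, lowest in 1/8. Gm43055 had a log2 fold change of -3.42 (SE 0.38, adjusted p = 6.99e-06 from edgeR, lower in both libraries), and Ythdc1 had -3.49.

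Gm26765 (ENSMUSG00000097664, chromosome 10 from 91149515 to 91150594) shares 35.3% of its exons with Tmpo, a nuclear lamina protein gene, on the opposite strand. It had 8.11 and 7.51 CPM at 10 cycles and 7.94 and 6.01 at 14 cycles, and 24.5 and 38.1 CPM in the whole oocytes at 18 cycles, 12.7 and 22.0 with 1/2 input, 27.6 and 11.5 with 1/4 and 5.26 and 9.40 with 1/8. Its log2 fold change was -2.40 (SE 0.54, adjusted p = 0.00221 from edgeR) and that of Tmpo -2.77, and Gm26765 did not pass without replicate 2 of the whole oocytes (-2.0) or replicate 1 of 1/8 (-1.91). Gm16933 (ENSMUSG00000086289, chromosome 8 from 25037052 to 25041892) shares 44.2% with Plekha2 on the opposite strand and had 13.3 and 15.3 CPM at 10 cycles and 13.4 and 15.6 at 14 cycles, and 67.3 and 57.4 CPM in the whole oocytes at 18 cycles, 35.3 and 30.01 with 1/2 input, 44.2 and 49.1 with 1/4 and 11.6 and 20.6 with 1/8. In both genes the whole oocytes at 18 cycles were well above 10 and 14 cycles, and 1/8 was back in or near that range. The log2 fold change of Gm16933 was -2.23 (SE 0.38, adjusted p = 0.000222 from edgeR), while Plekha2 had 0.15 and Htra4, which shares a further 36.5% of its exons on the opposite strand, had -0.66, and neither was called.

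The rest of the 8 were Gm26635 (log2 fold change -1.90), Gm26841 (-1.86), 1700028I16Rik (-1.79), Gm16755 (-1.78) and Gm26917. Gm26635 overlaps Hic2, Gm26841 overlaps H13 and Gm16755 overlaps Mrpl12, a mitochondrial ribosomal protein gene, each on the opposite strand, and these partners had log2 fold changes of -1.20, -2.07 and -1.89. These 4 genes other than Gm26917 were named after their values were seen. Of the 6 lower members that overlap exons, the partner sharing most bases was also lower for 5 and higher for 0 at the same threshold. Among the 65 higher members 12 overlap exons, and of the partners sharing most bases with each, 10 were tested, 4 of them higher and 0 lower. Without the overlapping genes 53 of 196 were higher (27%, all genes 7.06%) and 2 lower (1.02%, all genes 8.69%), with a median of 1.72. These counts also depended on single libraries, and the median was 1.54 without replicate 1 of the whole oocytes. The 2 lower ones are 1700028I16Rik, which overlaps no gene and did not pass with TMM size factors or with no filter, and Gm26917. The last had a log2 fold change of -6.14 (SE 1.39, adjusted p = 0.00236 from edgeR), but its groups overlapped, with 1837 and 1.17 CPM in the whole oocytes and 22.5 and 0.588 in 1/8, and without replicate 1 of the whole oocytes the value was 3.32. Without replicate 1 or 2 of 1/8 it did not pass (-10.65 and -5.48), nor with DESeq2.

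Base composition and marker genes are given beside these calls. The median GC content of the longest transcript was 53.1% in the 8 lower members, 46.0% in the 65 higher ones and 46.4% in the 198 not called. Among all genes tested it was 55.2% in those lower in 1/8, 45.0% in those higher and 49.2% in those not called. Of the 14 oocyte markers 10 were higher and 0 lower in 1/8 by edgeR, with a median log2 fold change of 1.19 and 13 at an unadjusted p under 0.05. Of the 7 granulosa and cumulus markers tested, 1 was higher, Cyp19a1, and 0 were lower by edgeR, with a median log2 fold change of -1.21, 5 below 0 and 2 at an unadjusted p under 0.05. The 1 theca and stroma marker tested did not pass, and 0 blood markers could be tested. The part of GC content, of these markers and of depth in the changes of the long intergenic RNAs was not tested.

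Genes of nuclear RNA surveillance and small RNA pathways, which degrade or process many noncoding transcripts, were followed as a related list of 28 entries. Of these, 27 were found, all but Skiv2l2, and all 27 were tested. In 1/8, 5 were lower (18.5%, all genes 8.69%) and 2 higher (7.41%, all genes 7.06%) by edgeR, with a median log2 fold change of 0.04, beside 0.03 for all genes. Those lower were the RNA exosome subunits Exosc6 (-4.58), Exosc4 (-2.28) and Exosc5 (-1.84), the helicase Upf1 of nonsense-mediated decay (-2.64) and Srrt (-1.59), which works with the nuclear cap-binding complex. Those higher were the poly(A) polymerase Papolg (1.66) and Zcchc7 (1.65), a partner of the exosome. In 1/4, Upf1 was lower (log2 fold change -1.84, SE 0.35, adjusted p = 0.00601 from edgeR) and 0 genes were higher, with 6 at an unadjusted p under 0.05. In 1/2, 0 passed in either direction by edgeR, with 5 at an unadjusted p under 0.05. With ERCC size factors 0 of all genes tested were higher in any fraction.

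The libraries were made from poly(A) RNA, so the annotated ends were searched for signals of polyadenylation. The hexamer AATAAA stood within the last 50 bases of the longest transcript, read on its own strand, in 115 of the 271 members (42.4%), in 31.4% of all lincRNA genes and in 59.1% of protein-coding genes with the same minimum. A further 33 members (12.2%) had only ATTAAA, as did 9.68% of all lincRNA genes and 14.3% of the protein-coding genes. A match is a description, and a missing one says only that the letters are not in this window of the annotated end. The last 50 bases of 3 abundant members with AATAAA are given by name, from the GENCODE M21 transcripts, 5′ to 3′, followed by those of 2 members at the rRNA locus that have neither hexamer. Capitals mark the hexamer nearest to the end.
4933427D06Rik: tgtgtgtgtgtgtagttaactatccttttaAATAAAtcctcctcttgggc
Gm47066: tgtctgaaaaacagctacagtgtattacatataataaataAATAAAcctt
AU016765: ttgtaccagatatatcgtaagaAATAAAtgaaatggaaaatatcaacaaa
Gm42418: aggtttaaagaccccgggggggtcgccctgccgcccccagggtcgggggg
Gm26917: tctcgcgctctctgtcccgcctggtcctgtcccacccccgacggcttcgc

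The ends of Gm42418 and Gm26917 are rich in G and C, and the longest transcript of Gm26917 has a GC content of 69.1%, the highest of the 271.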

How the data were processed

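Poly(A) RNA-seq counts of 12 libraries were used. The authors deposited raw HTSeq counts per gene and per ERCC molecule. Their processing notes name cutadapt 2.5, FastQC 0.11.8, STAR 2.7.2a, SAMtools 1.9, HTSeq 0.9.1, R 3.5.1 and DESeq2 1.24.0. Reads on no feature made up 7.24% to 11.2% of those on genes and no feature together.

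Gene types, positions and transcript ends come from GENCODE M21, which lists 55480 of the 55573 genes, and biotypes from RefSeq GRCm38.p6. Exon overlaps were found with bedtools 2.31.1 and tables were made with pandas 2.3.3. Fractions were tested in a joint fit of the 4 groups at 18 cycles with edgeR 4.0.16 in R 4.3.3 (quasi-likelihood, Benjamini-Hochberg over all genes, threshold 0.01), which was tested on simulated data. With 2 libraries per group the fit pools the spread over the groups. Members and lists were chosen with earlier results of these data known.

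Named genes were the 12 most abundant members, members on the list of known long noncoding RNAs, up to 4 members with the largest called changes in each direction of a comparison, those next to the count minimum, and the extremes of length and exon number. Alternatives were DESeq2 1.42.0, TMM or ERCC size factors, no filter or at least 10 counts in every library, all 6 whole oocytes as reference, the replicate number as a block, other member rules and leaving out each library. Leaving out the 3 members at the rRNA locus was chosen after seeing the data.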

Additional observations from a re-analysis of the deposited data

How the results depend on the processing

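Between 24 members named in the fraction tests and their alternatives, 354 values were compared. Gm26635, Gm26841, 1700028I16Rik and Gm16755, named after their values were seen, were not among these 24. Of the 354 values, 273 had the same direction and side of the threshold, 48 no longer passed, 4 newly passed and 29 changed sign. Of the 48, 16 came with all 6 whole oocytes as the reference. That reference holds the 4 libraries whose counts chose the members, so its values are listed for completeness and nothing is read from them. The 2 libraries per group, and few counts in the whole oocytes at 18 cycles, limit every call, and the lone library of a group was assumed to vary like the other groups where a replicate was left out. The values moved with these settings, and the cause was not tested.

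In 1/2 (0 members lower, 0 higher, median log2 fold change 0.31), DESeq2 called 1 lower and 1 higher, no filter gave 3 lower (all genes 0.494%) and 1 higher (all genes 0.403%), and ERCC size factors gave 67 lower (24.7%, all genes 52.0%). The median was -1.61 with ERCC and -0.999 against all 6 whole oocytes. Leaving out each library in turn gave 0 to 1 lower and medians from 0.16 to 0.53. In 1/4 (1 lower, 0 higher, median 0.37), DESeq2 called 2 lower and 1 higher, no filter gave 2 lower (all genes 0.654%), ERCC 150 lower and all 6 whole oocytes 0 lower. The median was -2.36 with ERCC and -0.92 against all 6 whole oocytes. Leaving out each library gave 0 to 2 lower, 0 to 1 higher and medians from 0.24 to 0.58. The replicate number, taken as a block, gave 1 lower in 1/2 (all genes 0.243%) and 2 lower in 1/4 (all genes 0.710%), and 8 lower (all genes 9.98%) and 72 higher (all genes 7.88%) in 1/8. The labels do not say that equal numbers share an oocyte, and the deviations of equally numbered libraries correlated between -0.11 and 0.10 across 8330 genes.

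In 1/8 (8 lower, 65 higher, median 1.56), ERCC gave 218 lower and 0 higher, and all 6 whole oocytes 0 lower and 0 higher. Members without exon overlap had 2 lower (1.02%, all genes 8.69%), and a count minimum of 100 left 5 lower (2.75%, all genes 8.69%). The median was -3.37 with ERCC, 0.18 against all 6 whole oocytes and 1.36 with at least 10 counts in every library, which left 115 members. Leaving out each library gave 4 to 7 lower, 18 to 57 higher and medians from 1.37 to 1.70. Without the 3 members at the rRNA locus, chosen after seeing the data, 7 were lower and 65 higher.

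Named members changed sign in 1/8 mainly with ERCC size factors, which gave 1700030N03Rik -0.71, Gm41414 -1.005, Gm49164 -1.49, Gm26619 -1.50, Gm42418 -4.23, AY036118 -4.16, 4933427D06Rik -3.55, Gm1070 -4.33, Gm1965 -3.52, Gm26582 -3.94, Gm47066 -3.33, Gm48893 -2.25, AU016765 -2.75, A730082K24Rik -3.62, Snhg6 -4.51, Snhg18 -3.68 and Pvt1 -2.89. Against all 6 whole oocytes C86187 was at 0.0101 and A730082K24Rik at -0.0874. Malat1 was at 0.0345 with DESeq2, 0.0407 with TMM and 0.13 with the replicate block. With each library left out, Gm26917 ranged from -10.65 to 3.32, Gm42418 from -0.0088 to 1.42, C86187 from -0.88 to 0.0529, Malat1 from -0.82 to 2.95 and Snhg6 from -0.0520 to 0.98.

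The share of gene counts on the members moved with the choice of members. Without those that share exons, but with Gm26917 still included, it was 0.908% at 10 cycles, 0.940% at 14 cycles, 0.364% at 18 cycles with whole oocytes, 0.359% for 1/2, 0.564% in 1/4 and 0.803% in 1/8. Without the rRNA locus it was 1.26%, 1.28%, 0.630%, 0.680%, 0.710% and 1.21% in the same order. Without the most abundant member it was 1.55% at 10 cycles, 1.304% in 1/2, 1.38% in 1/4 and 1.71% in 1/8, and with reads on no feature in the denominator 1.65% at 10 cycles and 1.80% in 1/4. A count minimum of 20 gave 437 members, a minimum of 100 gave 182, at least 5 CPM gave 256, and leaving out each of the 4 libraries gave 274 to 295.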
